A study of Rattus norvegicus with 11 samples.

Results

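In P23H rat retina, 70 of the 12037 genes measured were fully separated between halofantrine and DMSO in the direction away from the wild-type mean. These genes were chosen by their measured values in the 3 groups of this study. For 27 genes, the 4 halofantrine values all lay above the 5 DMSO values while the mean of the 2 wild-type values lay under the DMSO mean. For the other 43 genes, the 4 halofantrine values all lay under the 5 DMSO values while the wild-type mean lay over the DMSO mean. Since both contrasts chose the genes, all differences between the 3 groups are given below as descriptions, without a test.

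P23H is a substitution in rhodopsin, the photopigment that fills the outer segments of rods. The mutant protein misfolds and is retained in the endoplasmic reticulum, and the rods that make it degenerate, followed by cones. The P23H-1 line carries a rhodopsin transgene that is active in rods beside the rhodopsin of the rat itself. Halofantrine is a lipophilic amine that was used against malaria. The 70 genes are those whose halofantrine values all lay beyond the DMSO values, on the side opposite to the wild-type mean.

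RNA was taken from retinas of 11 female rats, with 1 library per animal, and the p-values and spreads below are between these animals. P23H rats were hemizygous P23H-1 animals from a cross of the transgenic line with Long Evans rats (P23HxLE). The 4 animals of the HAL group received halofantrine and the 5 of the DMSO group received DMSO, by injection of 5 µL into the vitreous of both eyes, and the labels give a range of 20 to 100 µM without the dose of each animal. The 2 wild-type (WT) animals were SDxLE rats labelled as not treated, so WT and DMSO differed in genotype, strain cross and injection at once, and these cannot be told apart. Ages and the time from injection to collection were not given in the labels. Titles end in R for the P23H animals and in L for the WT animals, and the animal numbers of the 3 groups do not overlap, so that side and cohort cannot be told apart from the group either. In whole-retina RNA, fewer cells of a type and less RNA per cell cannot be told apart. The files pair no gene identifier with a symbol, and 0 of 12037 identifiers matched a symbol in the RefSeq gene table used here. The genes therefore have no name or function below, retinal cell markers could not be checked, and only 4 genes are given by identifier.

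Gene totals ranged from 11685202 to 34198536 estimated counts per library. Values are the normalized signal of the authors, a count scaled for library depth that is not divided by transcript length. A higher signal for one gene than for another therefore means more counts, not more molecules. Log2 differences are between group means of log2(signal + 0.5). HAL replicate 1 and DMSO replicate 3 stood apart, since 3.79% and 3.41% of their transcript counts fell outside the gene table against 1.58% to 1.90% in the other 9 libraries. Without these 2 libraries, the rule gave 177 higher and 297 lower genes in place of 27 and 43. Leaving out any P23H library leaves fewer values to separate and so loosens the rule. Over all genes, 4.67% and 5.68% then separated HAL from DMSO (higher and lower), against 1.36% and 1.53% with all libraries. Of the original genes, 25 of 27 and 42 of 43 were still among the 177 and 297. However, leaving out a P23H library cannot end the separation of HAL from DMSO, so that only the side of WT could lose a gene.

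The 27 and 43 genes were the smaller share of the genes that separated halofantrine from DMSO. Halofantrine values were all higher than DMSO values for 164 genes (1.36% of all genes) and all lower for 184 genes (1.53%). The other 137 and 141 of these genes lay on the same side of DMSO as WT. Over all genes, the WT mean lay under the DMSO mean for 49.5% and over it for 50.5%. These shares belong to the contrasts that the rule used and carry no evidence about the genes.

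**Figure D1:**
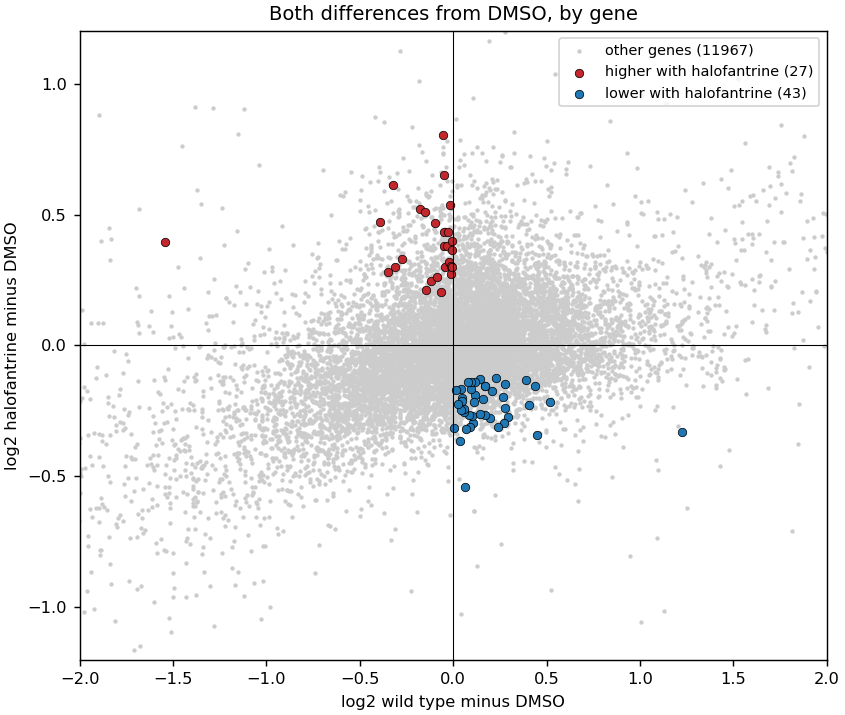
Each point is a gene, with the log2 difference of WT minus DMSO on the horizontal axis and of halofantrine minus DMSO on the vertical axis, both between group means of log2(signal + 0.5). The 27 higher genes (red) fill the upper left and the 43 lower genes (blue) the lower right, as the rule requires, most of them close to the vertical line where WT equals DMSO. The axes leave out 351 other genes and 0 of the 70.

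The 27 genes higher with halofantrine differed more between halofantrine and DMSO than between DMSO and WT, which the rule favours. It required full separation of halofantrine from DMSO, but for WT only the side of the mean. The log2 difference of halofantrine minus DMSO ranged from 0.20 to 0.80, with a median of 0.38, which is 30.6% above DMSO. The log2 difference of WT minus DMSO ranged from -1.54 to -0.0066, with a median of -0.056, which is 4.21% under DMSO. The difference from DMSO was larger for halofantrine than for WT in 24 of the 27 genes. In 17 genes WT was within 0.1 of DMSO on the log2 scale, and in 19 genes the WT mean lay inside the range of the 5 DMSO values. In such genes the halofantrine values stood apart from DMSO and WT alike. Both WT values lay under the DMSO mean in 16 genes, and under all 5 DMSO values in 5 genes. The rule admits only genes with a WT mean under the DMSO mean, which are 5960 of all genes. WT lay under all DMSO values in 2951 of these 5960 genes, and that is the share to set beside 5 of 27. Counted over all genes, admitted or not, the 2951 are 24.5%. In 6 genes, both differences reached 1.2-fold.

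The 43 genes lower with halofantrine are described in the same way, and the directions were not compared by a test. The log2 difference of halofantrine minus DMSO ranged from -0.54 to -0.12, with a median of -0.22, or -14.0% relative to DMSO. The log2 difference of WT minus DMSO ranged from 0.0059 to 1.23, with a median of 0.12, or 8.47% above DMSO. Halofantrine differed from DMSO by at least 1.2-fold in 16 of the 43 genes and in 24 of the 27 higher genes. WT differed from DMSO by at least 1.2-fold in 11 of the 43 and in 6 of the 27. Both WT values lay over the DMSO mean in 36 genes and over all 5 DMSO values in 23. The rule admits only genes with a WT mean over the DMSO mean, which are 6076 of all genes. WT lay over all DMSO values in 3259 of these 6076 genes, and that is the share to set beside 23 of 43. Counted over all genes, admitted or not, the 3259 are 27.1%. In 15 genes the WT mean lay inside the DMSO range, and in 17 it was within 0.1 of DMSO on the log2 scale. In 4 genes, both differences reached 1.2-fold. For comparison, the median absolute log2 difference over all genes was 0.13 for halofantrine and 0.30 for WT, both against DMSO. The rule chose the genes of both directions by these differences, so that no trait of the genes can be read from this comparison.

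In neither direction did a WT value reach the range of the halofantrine values, in 0 of 27 and 0 of 43 genes. The rule nearly fixes this, since it puts the WT mean and all HAL values on opposite sides of the DMSO mean. The share over all genes was not computed. The log2 difference of halofantrine minus WT, whose sign the rule also sets, had a median of 0.46 in the higher genes, from 0.27 to 1.94. In the lower genes its median was -0.37, from -1.56 to -0.19. The spread between replicates was wider in the higher genes, which had a lower median signal (23.7 against 82.0). The rule required HAL and DMSO not to overlap, so their spreads are tied to the choice of the genes and are descriptions only. The median SD of log2 signal was 0.15 in HAL, 0.14 in DMSO and 0.095 in WT for the higher genes, and 0.10, 0.078 and 0.032 for the lower genes. Over all genes, it was 0.21 in HAL, 0.21 in DMSO and 0.068 in WT. The difference of WT from DMSO exceeded the DMSO SD in 9 of 27 and 31 of 43 genes. The rule used the side of WT and the spread of DMSO, and the share over all genes was not computed. These counts are therefore descriptions only as well.

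**Figure D2:**
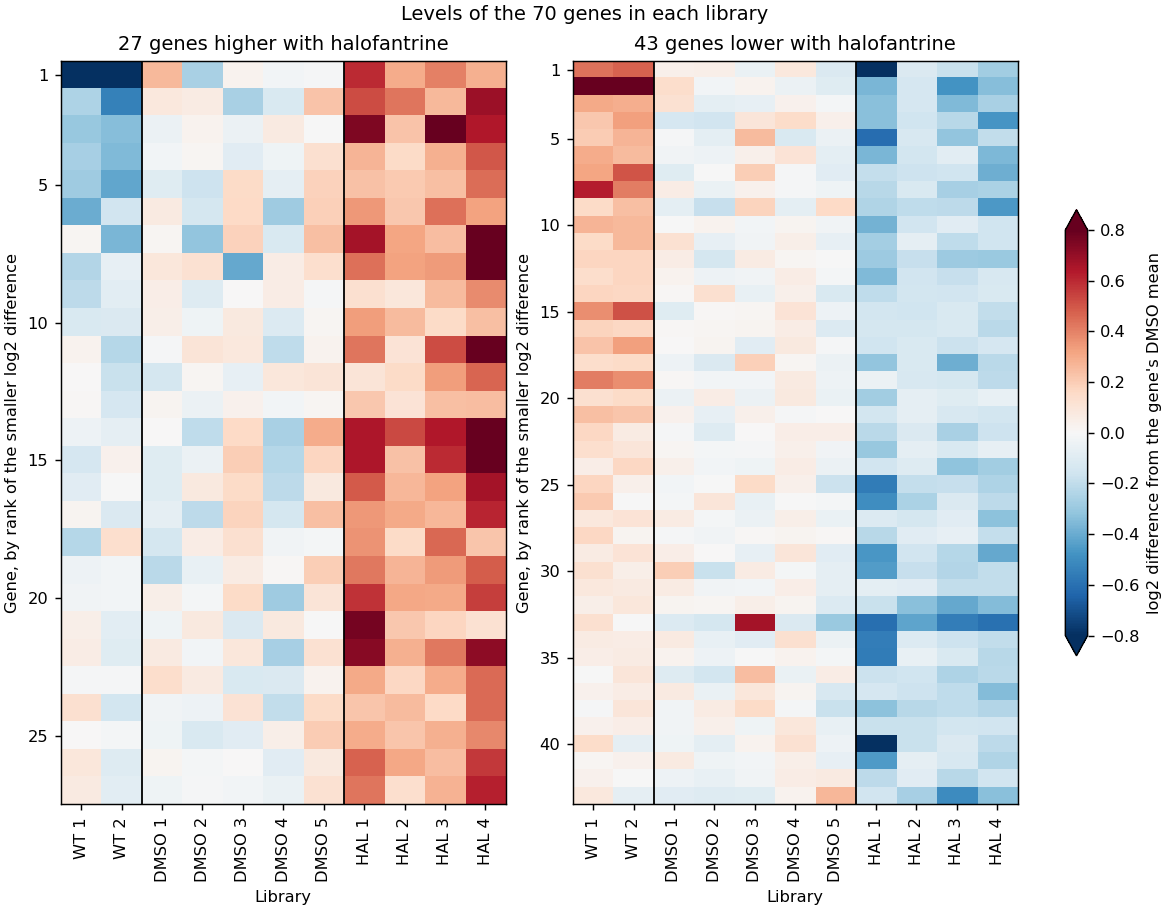
Colours give the log2 difference of each library from the DMSO mean of the gene, with 27 higher genes on the left and 43 lower genes on the right, in columns for the 2 WT, 5 DMSO and 4 HAL libraries. The scale ends at 0.8 in both directions. Rows are ordered by the smaller of the 2 absolute log2 differences (halofantrine and WT, each against DMSO), so WT is pale in most rows below the top rows, and HAL replicates 1 and 4 are the darkest HAL columns on the left.

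Ranked by the smaller of the 2 absolute differences from DMSO, the higher genes were led by ENSRNOG00000002728. Its signal was 13.4, 10.8, 11.7 and 10.7 in HAL replicates 1 to 4. In DMSO replicates 1 to 5 it was 10.5, 7.18, 8.86, 8.55 and 8.61. In WT it was 2.73 and 2.58. WT stood far below both P23H groups, at 2.65 ± 0.1003 (SD, n = 2), while HAL at 11.6 ± 1.24 (n = 4) and DMSO at 8.74 ± 1.19 (n = 5) came close to each other at HAL replicate 4 and DMSO replicate 1. The edgeR fit gave a log2 fold change of 0.40 (SE 0.153) for halofantrine against DMSO and of 1.77 (SE 0.218) for DMSO against WT. The gene rested on 30 to 402 estimated counts per library and met the rule under 3 of the 5 scalings compared.

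The gene ranked next, ENSRNOG00000023633, had signals of 50.1, 46.9, 41.7 and 56.1 in the HAL libraries. The DMSO libraries gave 36.9, 36.4, 28.9, 32.0 and 40.8, and the WT libraries 29.3 and 23.8. HAL replicate 3 and DMSO replicate 5 were the nearest values. The WT value of 29.3 lay just inside the lower end of the DMSO range, and that of 23.8 lay under it. The means were 48.7 ± 6.03 (SD, n = 4) in HAL, 35.0 ± 4.64 (n = 5) in DMSO and 26.5 ± 3.88 (n = 2) in WT. This was a stepwise pattern, with a log2 fold change of 0.47 (SE 0.129) for halofantrine against DMSO and of 0.45 (SE 0.166) for DMSO against WT in the edgeR fit. Counts of 276 to 1506, all of them whole, lay behind it, and it met the rule under 5 of 5 scalings.

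The third-ranked higher gene had the same counts as a single transcript in all 11 libraries. The HAL values were 29.1, 20.2, 31.0 and 27.1. The DMSO values were closely grouped, at 16.6, 17.5, 16.6, 18.0 and 17.1, and the WT values of 13.8 and 13.4 lay under each of them. The 3 groups did not overlap, and the HAL mean was 56.3% above the DMSO mean. The widest gap between halofantrine and DMSO belonged to another gene, at rank 14 of 27. Its HAL values were 35.2, 32.2, 35.0 and 59.1, against 22.3, 19.2, 24.9, 18.5 and 27.4 in DMSO and 21.6 and 21.1 in WT. It had the largest difference of the 27, 79.6% above DMSO, and HAL replicate 4 stood above the other 3 HAL libraries, but WT lay among the DMSO values. Uneven HAL values were also seen at rank 21, with 80.4 in HAL replicate 1 against 54.7, 52.99 and 51.3 in the other HAL libraries and 43.3 to 49.7 in DMSO.

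The lower genes were led by ENSRNOG00000007324. Its signal was 57.19, 92.56, 88.71 and 82.83 in HAL replicates 1 to 4 and 103.0, 103.8, 96.52, 106.3 and 92.60 in DMSO replicates 1 to 5. The WT values were 135.6 and 139.1. WT stood clearly over DMSO, at 137 ± 2.44 (SD, n = 2) against 100.5 ± 5.70 (n = 5), but HAL at 80.3 ± 15.9 (n = 4) met the rule only by the small step between 92.56 and 92.60. The edgeR fit gave a log2 fold change of -0.33 (SE 0.135) for halofantrine against DMSO. HAL replicate 1 was far under the other HAL values, and without it the log2 fold change was -0.18. The gene met the rule under 1 of the 5 scalings, the deposited one.

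Next among the lower genes was ENSRNOG00000005287, with HAL values of 24.5, 28.9, 22.7 and 25.03. DMSO values were 35.0, 31.3, 32.4, 30.7 and 29.7, and WT values were 70.01 and 80.4. This was the lower gene with the largest difference between WT and DMSO. Its mean was 25.3 ± 2.62 (SD, n = 4) in HAL, 31.8 ± 2.03 (n = 5) in DMSO and 75.2 ± 7.37 (n = 2) in WT, so that the step from DMSO to HAL was small beside that from WT to DMSO. In the edgeR fit the log2 fold changes were -0.34 (SE 0.0976) for halofantrine against DMSO and -1.19 (SE 0.115) for DMSO against WT. It met the rule under 5 of 5 scalings.

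**Figure D3:**
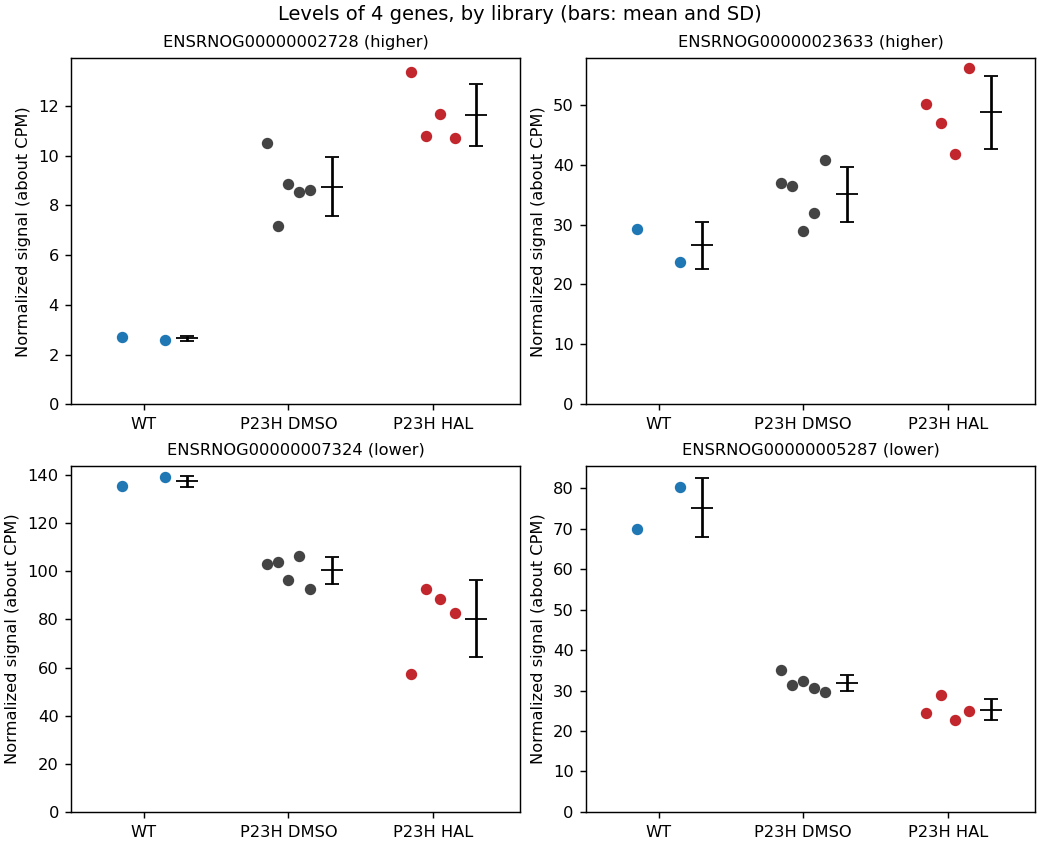
Normalized signal of the 4 genes given by identifier, 1 point per library for WT (n = 2), P23H DMSO (n = 5) and P23H HAL (n = 4), with the mean and SD beside the points and axes that start at 0. WT lies far from both P23H groups in ENSRNOG00000002728 and ENSRNOG00000005287, the 3 groups form steps in ENSRNOG00000023633, and in ENSRNOG00000007324 the HAL mean is drawn down by HAL replicate 1.

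Other lower genes showed steps between all 3 groups. At rank 8, HAL values of 47.5, 51.0, 46.0 and 46.5 stood under DMSO values of 57.9, 53.5, 56.8, 55.0 and 54.1, and WT was at 86.1 and 73.7. At rank 3, HAL values of 145, 167, 143 and 153 stood under DMSO values of 199, 174, 175, 188 and 181, and WT was at 226 and 224. In both, the 3 groups lay in the order WT, DMSO, HAL with no overlap. The widest gap and the largest difference among the 43 were at rank 33, with HAL at 61.7, 70.1, 64.05 and 62.1, DMSO at 87.2, 85.2, 149.2, 86.8 and 76.3, and WT at 103 and 93.8. There, DMSO replicate 3 stood far above the other DMSO values and above both WT values. At rank 40, HAL replicate 1 at 32.4 stood far under the other HAL values of 55.8, 58.3 and 54.7, while DMSO lay between 59.96 and 68.85 and WT at 69.999 and 60.1.

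Many of the 70 genes met the rule narrowly. The gap between the nearest halofantrine and DMSO values had a median of 0.030 on the log2 scale in the higher genes, from 0.0025 to 0.23, and of 0.025 in the lower genes, from 0.00018 to 0.12. For those nearest libraries, the 95% Poisson counting intervals were apart in 1 of 27 and 2 of 43 genes, and these intervals cover counting error only. Just inside the rule, the nearest values were 70.03 in HAL against 69.91 in DMSO for a higher gene and 53.62 against 53.63 for a lower gene. Just outside it, they were 66.57 against 66.63 and 52.08 against 51.97. On the WT side, the genes just inside had a WT mean of 68.9 against a DMSO mean of 69.2 (higher) and 34.49 against 34.47 (lower). Genes just outside had 413 against 411 and 59.9 against 60.1.

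A few libraries set most of these narrow gaps. HAL replicate 2 was the HAL library nearest to DMSO in 17 of the 27 higher genes and 22 of the 43 lower genes. DMSO replicate 5 was the DMSO library nearest to HAL in 15 and 20, and DMSO replicate 2 in 2 and 17. The HAL library farthest from DMSO was replicate 4 in 19 of the higher genes and replicate 1 in 21 of the lower genes. The median log2 difference from the DMSO mean over the higher genes was 0.43, 0.23, 0.29 and 0.49 in HAL replicates 1 to 4, and over the lower genes -0.28, -0.14, -0.19 and -0.22. HAL replicate 2 was thus the least displaced library in both directions. In WT, these medians were -0.038 and -0.11 for the higher genes and 0.15 and 0.15 for the lower genes.

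Leaving out a library loosened the rule in most cases. Without HAL replicate 2, 130 higher and 112 lower genes met it, while 5.90% and 3.78% of all genes separated HAL from DMSO. Without DMSO replicate 3, 109 and 92 met it, with 3.41% and 2.57% of all genes separated. The counts of genes that met the rule were 61 and 120 without HAL replicate 1, 65 and 79 without HAL replicate 3, and 53 and 87 without DMSO replicate 5. Without DMSO replicate 2, 39 and 75 genes met it. By its construction, leaving out a HAL library kept all 27 and 43 genes, and leaving out a DMSO or WT library could lose a gene only through the side of WT. On that side, 11 of the 27 higher genes and 36 of the 43 lower genes were kept with each library left out in turn, the 4 genes given by identifier among them. Without DMSO replicate 5, 19 of 27 higher and 41 of 43 lower genes were kept. Without WT replicate 2, 18 and 41 were kept, and without WT replicate 1, 25 and 38.

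The balance between the directions depended on the scaling. The deposited scaling gave 27 higher and 43 lower genes, the DESeq2 size factors 31 and 35, TMM factors 42 and 19, the library total 65 and 18, and upper-quartile factors 58 and 9. Under all 5 scalings, 22 of the 27 higher genes and 4 of the 43 lower genes met the rule. DESeq2 size factors kept 26 of the 27 higher genes and 32 of the 43 lower genes. The genes were chosen on the deposited scaling, so that all of them meet the rule there is fixed in advance. Of the other scalings, only the DESeq2 size factors kept most of the lower genes. The library total, TMM and upper-quartile factors did not. With upper-quartile factors, 35 of the 43 lower genes lost the separation of halofantrine from DMSO. With the library total, 21 lost it and 24 lost the side of WT, 14 of them both. The effective library size behind the deposited signal was 0.909 and 0.910 times the total in the WT libraries and 0.944 to 1.04 times in the others. Dividing by the total alone shifted the median log2 difference of WT minus DMSO over all genes by -0.15, and its median was 0.019 as deposited. TMM, DESeq2 and upper-quartile factors shifted it by -0.048, -0.018 and -0.029. A downward shift makes the WT side of the rule easier to meet for higher genes and harder for lower genes. The shares kept in the 2 directions are therefore not compared.

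**Figure D4:**
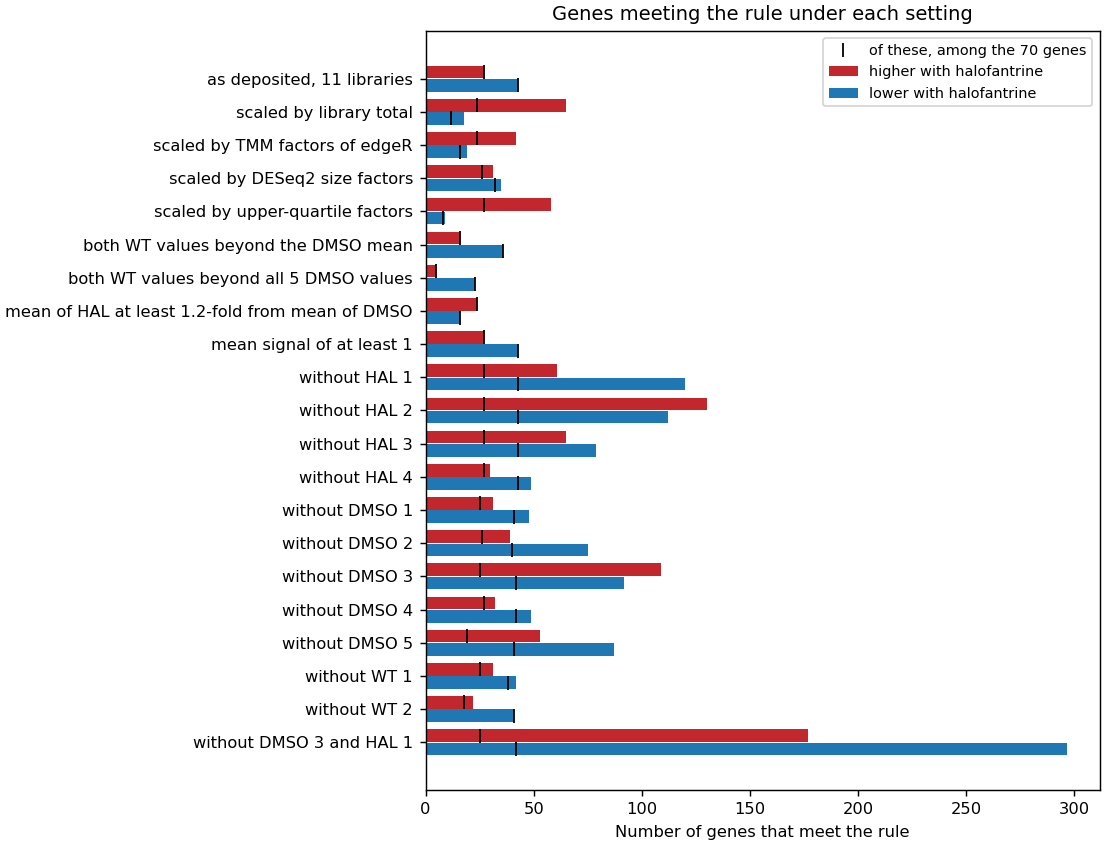
Number of genes that met the rule in each setting, red for higher and blue for lower with halofantrine, with a tick for how many of them were among the 70 genes. Red exceeds blue under each of the 4 other scalings except the DESeq2 size factors, and blue reaches 297 without DMSO replicate 3 and HAL replicate 1.

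All 27 and 43 genes had a mean signal of at least 1 and passed the low-count filter of edgeR. Over the whole table, the quasi-likelihood test of edgeR with Benjamini-Hochberg adjustment called 1 gene of 12031 for halofantrine against DMSO (0.00831%), and 0 of the 70. At an unadjusted p under 0.05 it called 26 of the 27 higher genes and 28 of the 43 lower genes, where 6.08% and 4.80% of all genes were called in those directions. limma-voom called 0 of the 70 after adjustment. DESeq2 called 4 of the 27 and 1 of the 43, where 0.205% and 0.0853% of all genes were called higher and lower. For DMSO against WT, edgeR after adjustment called 3 of the 27 as higher in DMSO and 5 of the 43 as lower in DMSO, where 10.9% and 10.3% of all genes were called in those directions. The rule used both contrasts, so that nothing can be read from these member counts.

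Some features were not named in the rule. Mean signal and lowest count still come from the same libraries and values, so they are not independent of the choice of the genes. The lowest count of a gene in any library had a median of 219 in the higher genes, from 30 to 755, and of 934 in the lower genes, from 110 to 4915. Mean signal lay above the median of all genes, 40.3, in 8 of the 27 higher genes and in 33 of the 43 lower genes. The lower genes thus rested on more counts. Counts were whole numbers in all libraries for 21 of 27 and 29 of 43 genes, against 64.5% of all genes. A count that is not whole arises where kallisto divided reads between genes. Since no table here pairs transcripts with genes, gene counts were matched to transcript counts by value, to 3 decimals in all 11 libraries. A single transcript with the counts of the gene was found for 11 of 27 and 9 of 43 genes, against 28.5% of all genes.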

How the data were processed

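RNA sequencing was performed on retinas of 11 female rats in 3 groups, taken from the sample labels. Replicate numbers follow accession order and serve only as names, without pairing animals. According to the methods of the study, libraries were made from polyadenylated RNA and kept the strand, and the authors assigned reads to the rat transcriptome of Ensembl release 115 with kallisto and summarised them with tximport. The deposited gene and transcript tables hold estimated counts per feature, without scaling, for 12037 genes and 95472 transcripts. The gene table had been restricted by a filter that is not given in the sources used here. The authors also deposited a normalized signal, which equals the gene count divided by 1 constant per library. How the constants were computed is not given in the sources used here. A further deposited table of the authors' own comparison holds log2 fold changes, mean log2 expression, moderated t, p-values, adjusted p-values and log-odds, and was not used.

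The rule was applied to the normalized signal, and equal values did not count as separated. The genes and lists were chosen with earlier results of these data known. Gene lists, cell markers, promoters and transcript shares within genes were not analysed here, because nothing used here pairs identifiers with symbols or transcripts with genes. For the same reason no sequence is shown. Named genes were, in each direction, the 12 highest ranked by the smaller absolute log2 difference, the 6 with the widest gap, and those just inside or outside the rule. Without symbols, 2 per direction are given by identifier, and a few others by rank. Ranks 21 and 40 lay outside this rule and were chosen after their values were seen.

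Counts were rounded to whole numbers and fitted in edgeR 4.0.16 (filterByExpr, TMM factors, quasi-likelihood test, all 11 libraries in 1 fit) under R 4.3.3. The filter removed 6 genes and left 12031. The Benjamini-Hochberg adjustment ran over all genes tested, and genes with an adjusted p under 0.05 were called. DESeq2 1.42.0 and limma 3.58.1 were alternatives. Counts were called whole within 1e-06. Counts were simulated for halofantrine against DMSO with 12031 genes and 200 changed. On these, edgeR recovered 67% of changed genes at a log2 change of 1 and 95% at a log2 change of 2. The measured log2 differences of halofantrine minus DMSO were smaller, 0.20 to 0.80 in the higher genes and -0.54 to -0.12 in the lower genes. The simulation therefore cannot say what share of changes of that size edgeR would recover.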

Additional observations from a re-analysis of the deposited data

Results flagged for a closer look

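The HAL and DMSO values of the 11 genes printed by library, and the share of transcript counts outside the gene table in each group, were searched for a library far from the others of its group. Of these 24 sets, 6 held one. A rate of about 1 in 20 would hold for independent sets that were not chosen by their values, and does not apply here. The sets share the same libraries. The genes at ranks 14 and 33 had been printed for their widest gaps, and those at ranks 21 and 40 picked after their values were seen. The share outside the gene table was 3.79% in HAL replicate 1 and 3.41% in DMSO replicate 3. Among the higher genes, HAL replicate 4 stood apart at rank 14, with a signal of 59.1, and HAL replicate 1 at rank 21, with 80.4. Among the lower genes, DMSO replicate 3 stood apart at rank 33, with 149.2, and HAL replicate 1 at rank 40, with 32.4.

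Over all 70 genes, a library stood apart in 14 of 140 sets. It was HAL replicate 4 in 5 of them, DMSO replicate 3 in 4, HAL replicate 1 in 2, DMSO replicate 5 in 2 and HAL replicate 2 in 1.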

How the results depend on the processing

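No paired analysis was possible because the labels carry no replicate numbers shared between the groups. In place of 27 higher and 43 lower genes, the rule gave 65 and 18 with the library total, 42 and 19 with TMM factors, and 58 and 9 with upper-quartile factors. Of the original genes, 24 and 12, 24 and 16, and 27 and 8 were among these. DESeq2 size factors and a mean signal of at least 1 left both counts within 1.5 times. Requiring both WT values beyond the DMSO mean left 16 higher genes, requiring them beyond all 5 DMSO values left 5 and 23, and requiring a 1.2-fold halofantrine difference left 16 lower genes. Leaving out each library in turn gave 22 to 130 higher and 41 to 120 lower genes. Without both DMSO replicate 3 and HAL replicate 1, an alternative added after seeing the data, there were 177 and 297. With fewer values to separate, 4.67% and 5.68% of all genes then separated HAL from DMSO.

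Over the whole table, edgeR called 1 gene for halofantrine against DMSO. It called 0 with the 9 P23H libraries alone, where 981 genes had an unadjusted p under 0.05, and DESeq2 called 34. Leaving out each library gave 0 to 2, and leaving out both gave 2. For DMSO against WT, 2548 genes were called, 519 to 3646 with each library left out and 5387 without both. The lowest counts, 611 and 519, came without WT replicate 1 and 2, which left that group with 1 library that was assumed to vary like the other groups. DESeq2 called 3400 and limma-voom 1727 for this contrast. The cause of these shifts was not tested.

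The median edgeR log2 fold change for halofantrine against DMSO has a direction that the choice of the genes fixes. It was 0.38 over the 27 genes (0.39 without both) and -0.22 over the 43 (-0.17 without both). Among the 4 named genes, the log2 fold change of ENSRNOG00000007324 ranged from -0.42 to -0.18 with a library left out, and moved by over 1.5 times without HAL replicate 1.

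The 2 WT libraries, the small gaps and the missing doses and ages limit these descriptions. The test of transcript shares within genes was not run.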
